A study of Mus musculus with 3 samples.

Results

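Markers of mesenchyme and mural cells were followed in sorted yolk sac cells by collecting every non-control probe whose annotated gene name was one of Pdgfra, Pdgfrb, Lum, Dcn, Acta2, Tagln, Postn, Wt1, Tbx18 and Des. All 10 genes were found, each by a single probe, out of 55681 probes on the array. The RNA came from yolk sac cells sorted for surface VE-cadherin, which joins endothelial cells to each other, and CD45, a phosphatase on blood cells. The tested embryos, Tie-2-Etv2, carry an Etv2 transgene that a Tie-2 Cre transgene switches on, and were profiled on 2 arrays, replicates 1 and 2. The control embryos were profiled on 1 array, with an age (E10.5) stated for them only. All embryos were of a mixed background (B6/CBA and others), and the cells were not cultured or treated after sorting. Tie-2 Cre acts in endothelial cells and in the blood cells descended from them, so the transgene is not confined to 1 lineage. The labels do not say whether embryos were pooled or whether the Tie-2-Etv2 arrays came from separate litters, so the spread between them may be technical.

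Mesenchymal cells of the yolk sac lie between the endoderm and the outer mesothelium and surround the blood vessels. Mural cells (pericytes and smooth muscle cells) wrap the endothelial tube; endothelial cells attract them with platelet-derived growth factor B, which acts on the receptor encoded by Pdgfrb. Neither cell type is known for carrying CD45, so the genes here serve as markers of cells other than those the sort was meant to collect. In RNA from a sorted pool, fewer cells of a type and less RNA per cell cannot be told apart.

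The arrays differed in brightness. The 75th percentile of probes detected on all arrays was 1199 and 2092 intensity units on the Tie-2-Etv2 arrays, against 2073 in the control, and log2 levels below are relative to that percentile. A probe was called detected where the scanner software marked it as well above background. The dimmest detected probe had 10.54 and 11.2 units on the Tie-2-Etv2 arrays, against 13.8 on the control array. Etv2 had 901 and 682 units in Tie-2-Etv2, against 72.6 in the control. Cdh5, the VE-cadherin gene, had 1568 and 751 units, against 123 in the control. Ptprc, which encodes CD45, had 421 and 698 units, against 978. The Etv2 probe is named only by its gene, so transcripts of the transgene and of the endogenous gene cannot be told apart.

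The 10 markers were dim or undetected on all arrays. Pdgfrb, Acta2, Tagln and Postn, 4 of the 10, were detected on all 3 arrays, which 40.9% of all probes were. Lum and Dcn, 2 of the 10, were detected on the control array and on neither Tie-2-Etv2 array, a pattern shown by 1.52% of all probes. Pdgfra, Wt1, Tbx18 and Des, 4 of the 10, were detected on no array, as were 48.7% of all probes. The highest signal of any marker was that of Lum in the control, 214 units. By these markers the label of mesenchyme and mural cells holds only in part, since the receptor Pdgfra and the regulators Wt1 and Tbx18 gave no detected signal in any group.

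**Figure D1:**
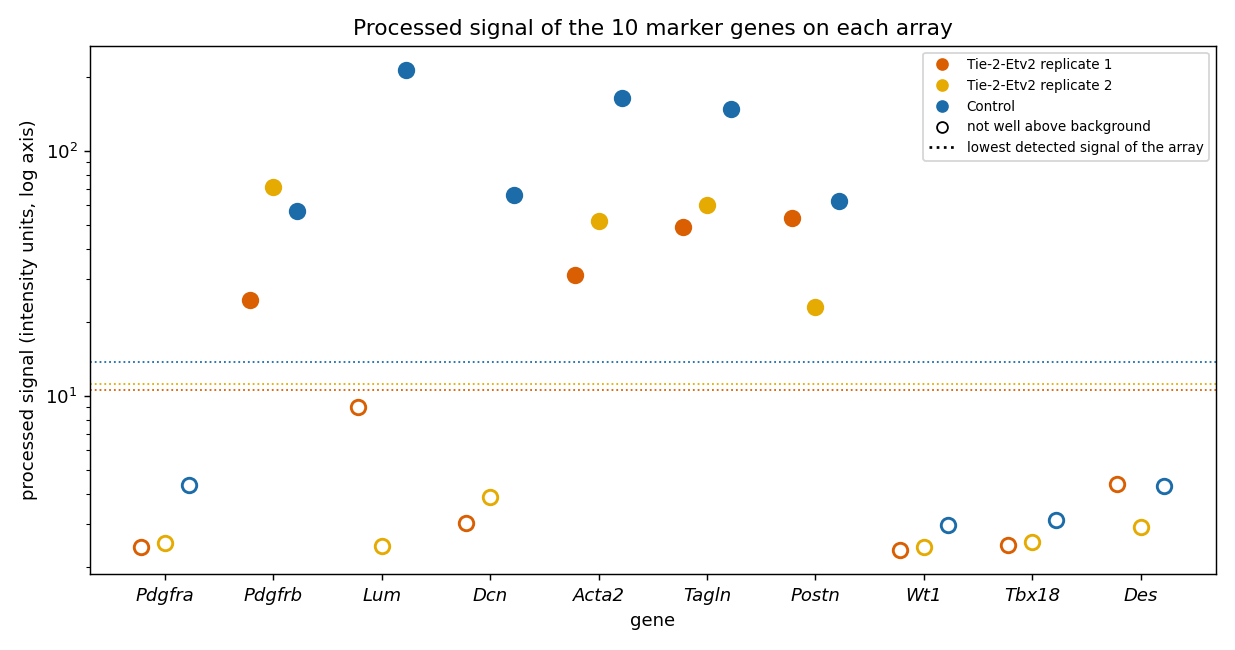
Processed signal (intensity units, log axis) of the 10 marker genes on Tie-2-Etv2 replicate 1, Tie-2-Etv2 replicate 2 and the control array; open circles mark probes not well above background, and dotted lines the dimmest detected signal of each array. Lum and Dcn are filled on the control array alone, while Pdgfra, Wt1, Tbx18 and Des are open on all 3 arrays.

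Only 6 of the 10 markers could be tested, because the test required detection in every array of at least 1 group. Acta2, Lum and Dcn were at least 2-fold lower than the control on both Tie-2-Etv2 arrays, and no marker was at least 2-fold higher on both. Over all 19580 genes tested, 6.64% were at least 2-fold lower on both arrays and 3.92% at least 2-fold higher. Lum and Dcn entered the test through the control array alone and so had to be lower. With dim values raised to the dimmest detected level, all 3 stayed at least 2-fold lower on both arrays, beside 5.18% of all genes. Lum and Dcn were still counted through the control array alone, so this share is no like comparison for them. That leaves Acta2 as the 1 marker of the 4 detected on all arrays; among genes detected on all arrays 3.44% were at least 2-fold lower. The median log2 difference of the 6 tested markers was -1.35, beside 0.07 over all genes tested; over the 4 markers detected on all arrays it was -0.76, beside 0.10 over genes detected on all arrays. In limma's test over all probes 0 markers passed an adjusted p of 0.05, as did 0% of all genes, and 3 markers (Acta2, Lum and Dcn) had an unadjusted p under 0.05, beside 10.8% of all genes, Acta2 being the 1 of them detected on all arrays. With 1 control array, an exact permutation test of a single gene cannot give a p below 0.333.

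Among the contractile and cytoskeletal markers, Acta2, which encodes smooth muscle alpha actin, was detected on all arrays by a probe printed in 10 spots on each. Its signal was 31.1 and 51.7 units on the Tie-2-Etv2 arrays, against 164 in the control. All 10 spots were detected on each array. The spots used ranged from 25.3 to 40.2 units on replicate 1 and from 44.7 to 56.8 on replicate 2, against 137.8 to 188 on the control array. In these unscaled units the spots used on the Tie-2-Etv2 arrays and on the control array did not overlap. Scaled log2 levels of the spots used ranged from -5.57 to -4.90 (replicate 1), -5.55 to -5.20 (replicate 2) and -3.91 to -3.46 (control). How many other probes printed 10 times show such a gap was not counted. Spots of 1 array are technical copies and are not replicates of the condition. The spot at row 237, column 87 was marked by the scanner software as an outlier on Tie-2-Etv2 replicate 2 (109 units) and on the control array (203 units) and was left out there.

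After scaling, Acta2 was 3.05-fold lower on Tie-2-Etv2 replicate 1 and 3.20-fold lower on replicate 2. Its log2 level was -5.30 ± 0.05 (SD, n = 2) in Tie-2-Etv2, against -3.66 in the control. The log2 difference of -1.64 ± 0.32 (SE) did not pass limma's test (adjusted p = 0.266). The single control array gives no spread of its own. With normexp background correction, which adds 50 units to every signal, the difference was -0.55 on replicate 1 and -1.02 on replicate 2, so Acta2 was no longer 2-fold lower on both. The Acta2 probe lies at chromosome 19, 34316060 to 34316119 (mm9, minus strand), and starts at base 1241 of its transcript. Acta2 is 1 of several closely related actin genes, and whether the probe also binds their transcripts was not tested.

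**Figure D2:**
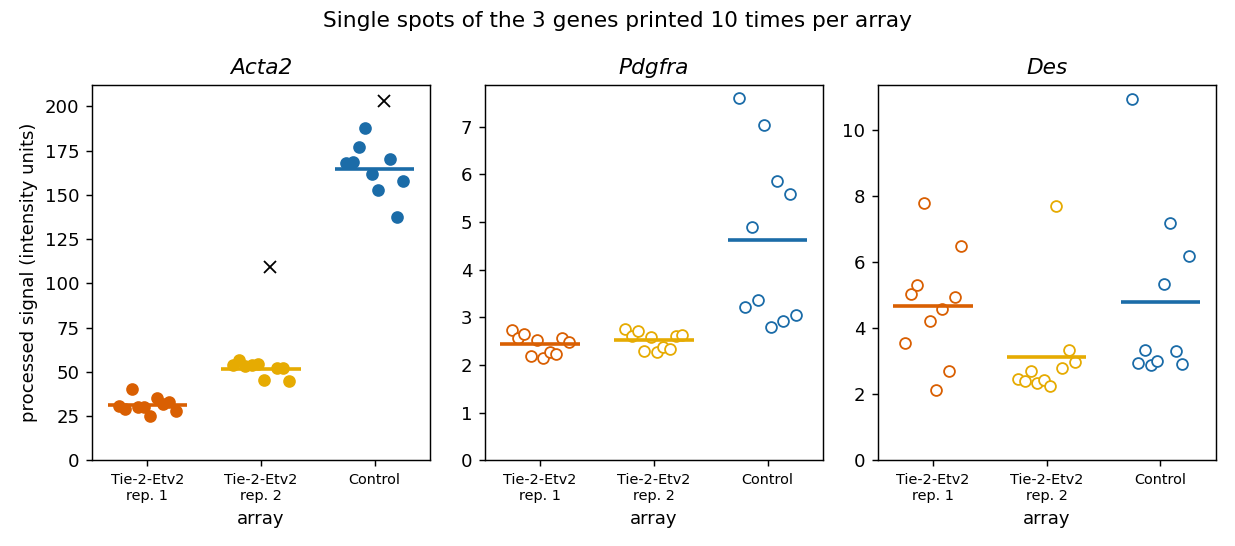
Processed signal (intensity units, linear axis from 0) of every spot of Acta2, Pdgfra and Des on Tie-2-Etv2 replicate 1, Tie-2-Etv2 replicate 2 and the control array; filled circles are well above background, open circles are not, crosses are outlier spots left out, and bars are the mean of the spots used. In these unscaled units the Acta2 spots used fall into separate ranges on the 3 arrays, while all spots of Pdgfra and Des are open. After scaling, the Acta2 spots of replicates 1 and 2 overlap.

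The promoter of Acta2 is shown because serum response factor, with the coactivator myocardin and its relatives, drives smooth muscle genes through CArG boxes, and Acta2 is a textbook case. The 250 bases before its annotated start, from RefSeq (GRCm38.p6, chr19:34255374-34255623, minus strand, 5′ to 3′), hold CArG boxes with at most 1 base that departs from the consensus inside the box, printed in capitals.
Acta2 promoter: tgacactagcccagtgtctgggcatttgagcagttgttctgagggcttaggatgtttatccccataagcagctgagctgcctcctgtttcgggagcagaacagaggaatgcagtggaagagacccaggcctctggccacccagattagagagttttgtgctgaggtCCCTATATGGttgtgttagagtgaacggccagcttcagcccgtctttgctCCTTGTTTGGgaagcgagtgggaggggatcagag
The boxes CCCTATATGG and CCTTGTTTGG begin 84 and 34 bases before the start. The search took the CArG box, which reads alike on both strands, and allowed 1 mismatch. Of 32851 promoter windows of the same length 8.59% held at least 1 such match, and 1.47% held 1 without a mismatch. Of 12 contractile genes from the related list with a window in the table, 1 held a match. RefSeq's table held windows for 5 of the 10 markers: besides Acta2, the Tbx18 window held 1 match, and those of Des, Pdgfra and Postn held 0. Tagln, Dcn, Lum, Wt1 and Pdgfrb were not in the table. A match is a description of these letters and was not tested for binding.

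Srf, which encodes serum response factor, was detected on all arrays, with 1074 and 2168 units in Tie-2-Etv2, against 2535 in the control, a log2 difference of -0.34 ± 0.33 (SE). Its coactivator genes Mrtfa and Mrtfb, relatives of myocardin, were at 0.43 ± 0.38 and 0.23 ± 0.33 (SE), and Myocd itself was not detected in the groups required for testing. None of them passed limma's test (adjusted p = 0.875, 0.855 and 0.928).

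Tagln, which encodes the actin-binding protein SM22 alpha of smooth muscle, had 48.8 and 60.3 units in Tie-2-Etv2, against 148 in the control. The scanner software's own error for the single spot was 5.39 and 6.49 units on the Tie-2-Etv2 arrays, against 15.1 on the control array. Both Tie-2-Etv2 values lay below the control, but after scaling the difference was 1.76-fold on replicate 1 and 2.48-fold on replicate 2, so Tagln was not 2-fold lower on both; with spike-in scaling it was, at -1.01 and -1.27 on the log2 scale. The log2 difference of -1.06 ± 0.39 (SE) did not pass (adjusted p = 0.484 in limma's test). Its probe lies at chromosome 9, 45738097 to 45738156 (mm9, minus strand), from base 1140 of the transcript.

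Des, which encodes desmin, the intermediate filament protein of muscle, was not detected on any array. The means of its 10 spots were 4.67 and 3.14 units on the Tie-2-Etv2 arrays, against 4.80 in the control, and the spots of the 3 arrays overlapped. The scanner software put 8 and 3 of the 10 spots significantly above local background on the Tie-2-Etv2 arrays, against 4 in the control, but 0 well above it on each. No fold is given for Des, because all arrays lay under the dimmest detected signal.

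Among the matrix genes, Lum encodes lumican and Dcn encodes decorin, small leucine-rich proteoglycans that bind fibrillar collagen. Lum had 9.005 and 2.44 units in Tie-2-Etv2 (replicates 1 and 2), against 214 in the control. Neither Tie-2-Etv2 value was well above background, and on replicate 2 the value was a surrogate that the software put in place of a very dim spot. The bound for Lum is thus at least 11.8-fold lower on replicate 1, at least 19.3-fold on replicate 2 and at least 15.1-fold in the mean, taking the dimmest detected signal of the array where the measured one was lower. Limma, run on the values as deposited, surrogate included, gave an adjusted p of 0.314. The Lum probe lies at chromosome 10, 97035210 to 97035269 (mm9), from base 1947 of the transcript.

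Dcn had 3.02 and 3.88 units in Tie-2-Etv2, against 66.0 in the control, where the scanner software's error was 7.32. Its bounds were at least 3.62-fold lower (replicate 1), at least 5.94-fold (replicate 2) and at least 4.64-fold (mean). The adjusted p of 0.200 in limma's test was the smallest that any probe received, and 127 probes shared it. Neither Tie-2-Etv2 value was well above background, so the spread behind this p lies between 2 undetected values and does not measure that of Dcn RNA. With normexp background correction Dcn was at -0.24 on replicate 1 and -0.96 on replicate 2. Both Lum and Dcn had 1 spot per array, and the median local background was 26 units on each Tie-2-Etv2 array, against 21 in the control, for Dcn and 26 and 27, against 25, for Lum. Among the 92 probes with the largest bounds of those detected on the control array alone, the nearest other spot lay 3.16 spot positions from Dcn. For Lum it lay 10.4 positions away. Whether position on the array contributed to either signal was not tested.

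The probes of Dcn and Des are shown because they are opposite cases, 1 detected on the control array alone and 1 on no array, and because both hold a stop codon near their 3′ end, printed in capitals. They are 60 bases long, on the plus strand, 5′ to 3′, from the deposited arrays.
Dcn probe: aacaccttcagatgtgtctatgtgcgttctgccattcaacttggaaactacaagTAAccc
Des probe: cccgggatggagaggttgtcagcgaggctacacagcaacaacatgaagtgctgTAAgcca
The frame of the capitals is open for 54 bases before the stop codon in the Dcn probe and for 51 in the Des probe. The Dcn probe lies at chr10:96980233-96980292 and the Des probe at chr1:75363404-75363629 (mm9), the longer span of the Des probe being that of the file.

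Postn encodes periostin, a matrix protein of fibroblasts and of growing or injured tissue. Its signal was 53.1 and 23.1 units in Tie-2-Etv2, against 62.6 in the control. After scaling, the Tie-2-Etv2 arrays lay on opposite sides of the control: the log2 difference was 0.55 on replicate 1 and -1.45 on replicate 2. The mean of -0.45 ± 0.93 (SE) was smaller than this spread (adjusted p = 0.949 in limma's test), and it was 0.05 with normexp. The probe, at chromosome 3, 54194840 to 54194899 (mm9), was designed on 1 transcript variant, and whether it detects the others was not tested.

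Among the receptors, Pdgfrb, through which platelet-derived growth factor B recruits pericytes, had 24.8 and 71.2 units in Tie-2-Etv2, against 57.1 in the control. It too lay on opposite sides of the control after scaling, at -0.41 and 0.30. Its mean log2 difference was -0.05 ± 0.45 (SE) under the main scaling and 0.21 with normexp, so no direction can be given (adjusted p = 0.988 in limma's test).

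Pdgfra, the receptor of fibroblasts and mesenchymal progenitors, was not detected on any array. Its 10 spots had means of 2.44 ± 0.21 and 2.52 ± 0.18 units in Tie-2-Etv2, against 4.63 ± 1.81 in the control (SD over 10 spots, a technical error). On the Tie-2-Etv2 arrays all 10 spots held surrogate values, whereas on the control array 4 did and the other 6 were significantly above local background, with 7.61 units the highest. These values are under the dimmest detected signal of 13.8 units in the control, and no fold is given. The Pdgfra probe lies at chromosome 5, 75593888 to 75593947 (mm9), from base 6211 of the transcript.

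The regulators gave no measurement. Wt1 encodes a zinc finger factor of mesothelium, and its probe had surrogate values of 2.35 and 2.43 units on the Tie-2-Etv2 arrays, against 2.96 in the control. Tbx18 encodes a T-box factor of mural cells and epicardium, and its surrogate values were 2.46 and 2.54 units, against 3.11. Surrogates have no order, so neither gene can be compared between the groups.

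**Figure D3:**
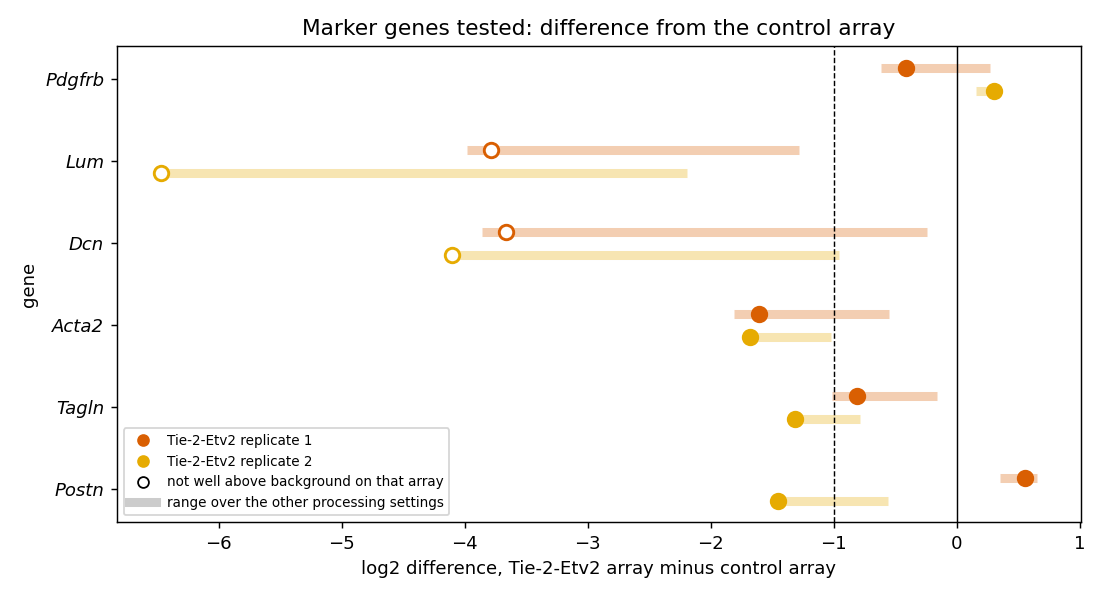
Log2 difference of each Tie-2-Etv2 array from the control array for the 6 markers tested; open circles are values not well above background, bars give the range over the other processing settings, and the dashed line marks a 2-fold lower level. Acta2 shows nearly equal values on both arrays, at -1.61 and -1.68, while the arrays of Postn and Pdgfrb lie on opposite sides of 0.

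Related genes were drawn from lists for contractile proteins, mural cells, regulators, matrix, mesothelium, platelet-derived growth factors and cytoskeletal relatives of the markers. Of 92 such genes 42 were tested. At least 2-fold lower on both Tie-2-Etv2 arrays were 8 of them (19.0%) and at least 2-fold higher 4 (9.52%), beside 6.64% and 3.92% of all genes. Actc1 and Tbx20, 2 of the 8, were detected on the control array alone. With dim values at the dimmest detected level 6 stayed at least 2-fold lower, beside 5.18% of all genes. In limma's test 0 of the 42 passed, and 11 had an unadjusted p under 0.05, beside 10.8% of all genes. Actc1 and Tbx20 were among the 11. The median log2 difference of the 42 related genes was -0.30, beside 0.07 over all genes tested. The matrix list alone held genes at least 2-fold lower and genes at least 2-fold higher on both arrays.

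Of 14 contractile genes 9 were tested, and 2 were at least 2-fold lower on both arrays, with a median of -0.15. Tpm2, which encodes a tropomyosin of the actin filament, had 121 and 815 units in Tie-2-Etv2, against 3931 in the control, and was 18.8-fold lower on replicate 1 and 4.87-fold lower on replicate 2. Myl9, a regulatory myosin light chain gene, had 22.1 and 98.5 units, against 321, and was 8.39-fold and 3.28-fold lower. Their adjusted p was 0.364 and 0.366 in limma's test. Myh11, Cnn1, Lmod1, Actg2 and Synpo2, genes of differentiated smooth muscle, were not detected in the groups required for testing. Tpm1 and Actn1, detected on all arrays, had log2 differences of 0.24 and -0.15.

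Of 9 cytoskeletal relatives 6 were tested, with a median of -1.19, and 3 had values at least 2-fold lower on both arrays, 2 of them (Vim and Nes) detected on all arrays. Vim, which encodes vimentin, an intermediate filament protein also found in blood cells, had 1798 and 6921 units in Tie-2-Etv2, against 20126 in the control, a log2 difference of -2.12 ± 0.59 (SE). Nes, which encodes nestin, was at -2.41 ± 0.69 (SE), and Actc1, cardiac actin, was detected on the control array alone, with bounds of at least 1.61-fold lower on replicate 1 and 2.65-fold on replicate 2. Their adjusted p was 0.364, 0.373 and 0.276 in limma's test. Tagln2, a relative of Tagln expressed widely in blood cells, was at -0.25, and the cytoplasmic actins Actb and Actg1 were at 0.25 and -0.02.

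Of 24 proteoglycan and matrix genes 8 were tested, with a median of 0.08, and 2 were at least 2-fold higher on both arrays and 1 lower. Fmod, Ogn, Prelp, Aspn, Kera and Omd, further members of the proteoglycan family of Lum and Dcn, were not tested. Bgn, a family member detected on all arrays, had 29.6 and 60.5 units in Tie-2-Etv2, against 73.9 in the control, a log2 difference of -0.42 ± 0.33 (SE). Tgfbi, a matrix protein gene also made by macrophages, was at -6.45 on replicate 1 and -2.63 on replicate 2. Sparc, a collagen-binding matrix protein that endothelial cells also make, was 7.17-fold and 2.25-fold higher, and Ccdc80 was 2.62-fold and 2.01-fold higher. None of them passed limma's test (adjusted p = 0.495, 0.523 and 0.392).

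Of 14 pericyte and mural genes 4 were tested, with a median of -1.07, and 1 was at least 2-fold higher on both arrays. This was Angpt1, the angiopoietin that activates the Tie-2 receptor and is made by mural and blood-forming cells, with 3775 and 3412 units in Tie-2-Etv2, against 1059 in the control (log2 difference 2.15 ± 0.52 SE, adjusted p = 0.324 in limma's test). Cspg4, Rgs5, Kcnj8 and Abcc9, defining genes of pericytes, were not tested. Of 4 platelet-derived growth factor genes 2 were tested, and Pdgfb, the ligand of Pdgfrb that endothelial cells make, was higher on both arrays, by 3.22-fold and 2.53-fold (adjusted p = 0.311 in limma's test), while Pdgfa was at 1.08 and -0.64 on the log2 scale.

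Of 11 mesothelium genes 6 were tested, with a median of -1.53, and 1 was at least 2-fold lower on both arrays: Krt8, a keratin gene of simple epithelia, at -4.65 on replicate 1 and -1.54 on replicate 2. Keratin 8 is also a protein of the visceral endoderm. Of 16 regulators 7 were tested, with a median of -0.34, and Tbx20 was detected at 19.7 units on the control array alone, with bounds of at least 1.08-fold lower on replicate 1 and 1.77-fold on replicate 2, which do not reach 2-fold. Twist1, a regulator of mesenchyme, was detected on both Tie-2-Etv2 arrays (11.2 and 25.7 units) and not on the control array (9.75 units), at least 1.61-fold higher in the mean. Krt8 and Tbx20 did not pass limma's test (adjusted p = 0.586 and 0.256).

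**Figure D4:**
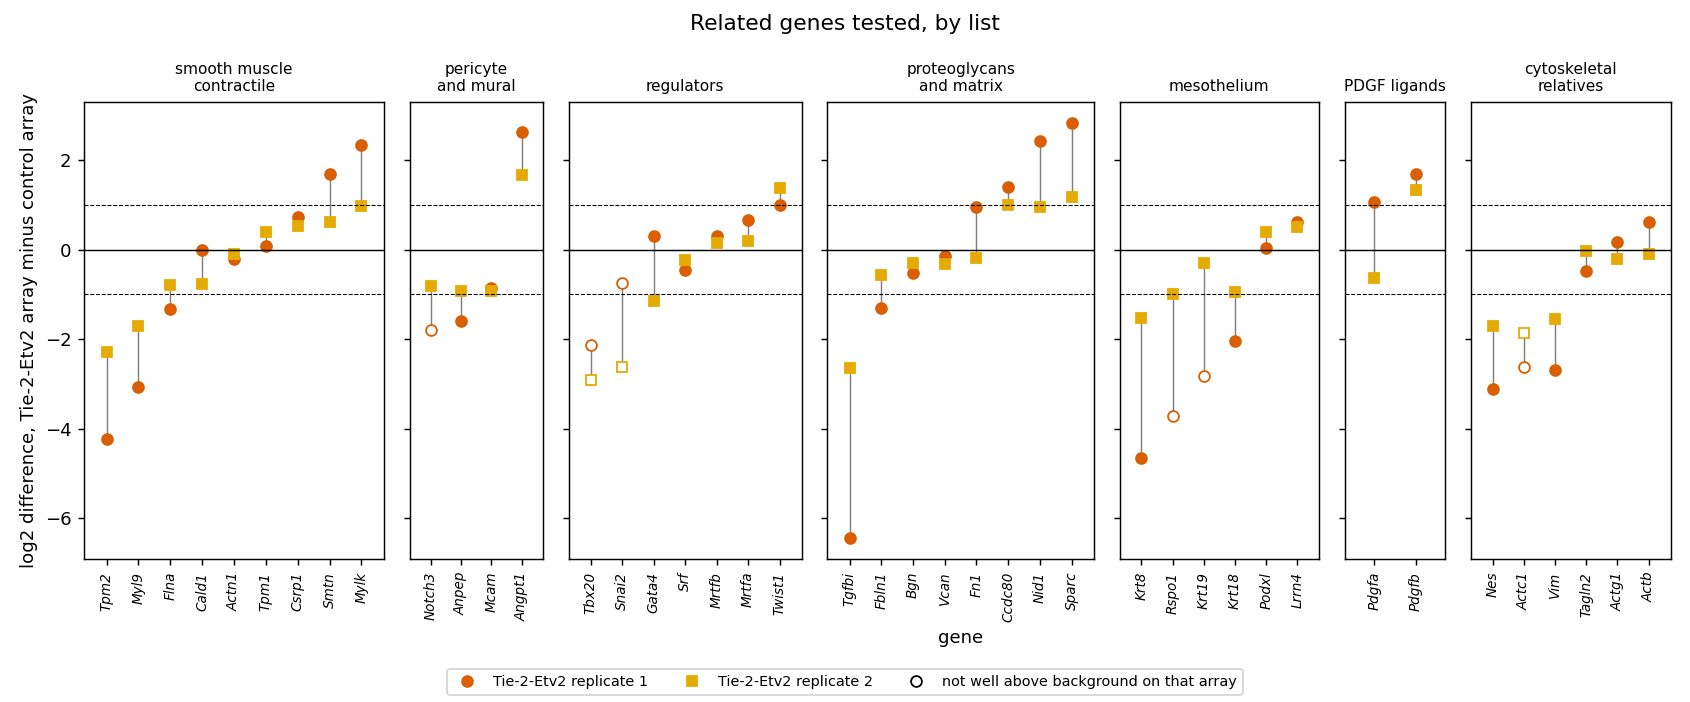
Log2 difference of Tie-2-Etv2 replicate 1 (circles) and replicate 2 (squares) from the control array for the 42 related genes tested, by list; open symbols are values not well above background and dashed lines mark 2-fold. The matrix list spans the widest range on replicate 1, with Tgfbi at -6.45 and Sparc at 2.84.

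Markers of other cells also differed between the groups. Of 11 macrophage markers 11 were at least 2-fold lower on both Tie-2-Etv2 arrays, and their summed signal, in multiples of the 75th percentile, was 4.94 and 17.0 in Tie-2-Etv2, against 74.7 in the control. Of 10 visceral endoderm markers tested 8 were lower, with sums of 6.52 and 14.7, against 32.3. Of 12 endothelial markers 8 were higher, with sums of 51.6 and 25.7, against 10.74. Of 7 blood markers 2 were higher, with sums of 8.63 and 10.02, against 5.92. These sums weigh bright genes most. Egfl7, the brightest endothelial marker, had 50180 and 44693 units in Tie-2-Etv2, against 17233 in the control. Trf, not 2-fold lower, was the brightest visceral endoderm marker on replicate 1, at 5965 units. Median log2 differences, in which each gene counts alike, were -4.30 (macrophage), -2.83 (visceral endoderm), 1.85 (endothelial) and 0.41 (blood). Alb, the visceral endoderm marker beyond the 10 tested, was not tested. Over all genes tested 6.64% were at least 2-fold lower on both arrays and 3.92% at least 2-fold higher. Timd4, a macrophage marker, was detected on neither Tie-2-Etv2 array, and Sox18, an endothelial marker, not in the control. Both are in the counts above, though each entered the test through 1 group alone, which set its direction. The part of these cells in the marker values was not tested.

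Which Tie-2-Etv2 array had the lower level after scaling differed between the lists, as a description with no test. Of the 10 macrophage markers detected on all arrays, 10 were further below the control on replicate 1 than on replicate 2, and so were 7 of 8 visceral endoderm markers. Of the 4 mesenchyme and mural markers detected on all arrays, 3 (Acta2, Tagln and Postn) had the lower level on replicate 2. The other, Pdgfrb, had it on replicate 1. Over all genes detected on all arrays 43.8% had the lower level on replicate 1, whether below or above the control. So did 5 of 9 contractile, 3 of 8 matrix, 3 of 4 mesothelium and 3 of 5 cytoskeletal genes detected on all arrays. Tpm1 and Podxl, counted here, lay above the control on both arrays. Mural genes gave 1 of 3, regulators 1 of 4 and growth factor genes 0 of 2. Endothelial markers gave 0 of 11 and blood markers 5 of 7. The related genes detected on all arrays and at least 2-fold lower on both Tie-2-Etv2 arrays were Tpm2, Myl9, Vim, Nes, Krt8 and Tgfbi. Each was further below on replicate 1. For Acta2 the arrays differed by only 0.07 on the log2 scale, and Postn lay above the control on replicate 1, at 0.55. Adgre1, the macrophage antigen F4/80, was at -6.13 on replicate 1 and -4.28 on replicate 2. What sets this order was not tested.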

How the data were processed

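The authors extracted spot intensity values with Agilent Feature Extraction 10.7, per the submitters' processing notes, and version 10.7.3.1 per the file headers, with background subtraction, detrending, surrogates for dim spots and no scaling between arrays; flags of each spot are other deposited values. The authors' deposited log2 table served as an alternative: its differences matched those of the signal, up to 1 constant per array, within 0.01 in 100% of 55668 probes, and it was centred on the median of each row, with column medians of 0.136, 0 and 0. Control and outlier spots (168 to 174 per array) were left out, log2 signals averaged per probe, and the 75th percentile over 22764 probes detected on all arrays subtracted. Probes detected (over 0.5 of spots well above background) in every array of at least 1 group were tested with limma 3.58.1 in R 4.3.3, two-sided, with Benjamini-Hochberg adjustment. The spread came from the Tie-2-Etv2 pair (1 residual degree of freedom, 3.92 after moderation), which was taken to hold for the single control too. A gene was represented by its brightest probe. Names followed RefSeq GRCm38.p6 (26005 of 55681 probes kept the name in the file); probe coordinates are mm9. The code was tested on simulated data. Alternatives were normexp, other scalings, the filter on dim probes, dim values at the lowest detected level and leaving out each Tie-2-Etv2 array. Of each related list, up to 4 genes 2-fold apart on both arrays were named, furthest first, and other genes were named after their values were seen. The markers and lists were chosen with earlier results of these data known. The number of arrays limits precision.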

Additional observations from a re-analysis of the deposited data

How the results depend on the processing

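Scaling to all probes, quantile normalization, spike-in scaling and the authors' table left Acta2, Lum, Dcn and Tagln lower and without a pass. The number of genes passing limma was 0 except under normexp (614) and where dim probes were kept (440), the settings in which Lum passed; Dcn passed where dim probes were kept. Both were not well above background in Tie-2-Etv2, so these passes give no size. Genes 2-fold apart numbered 2067, against 803 with normexp and 1095 with probes detected on all arrays, where fewer genes are tested. Markers 2-fold lower numbered 3, against 1 with normexp (Lum) 1 with probes detected on all arrays (Acta2) and 4 with spike-in scaling, which added Tagln. Leaving out 1 Tie-2-Etv2 array gave 2529 to 3978 genes 2-fold apart, 3 to 5 markers lower and 10 to 15 related genes lower, against 8; without replicate 1, Tagln and Postn joined the lower markers. Pdgfrb and Postn changed sign with normexp, to 0.21 and 0.047. Over all settings Acta2 ranged from -1.72 to -0.79 and Tagln from -1.31 to -0.47. Normexp adds 50 units to signals of like size, and limma's moderation of the spread changed too. The degrees of freedom that moderation added were 2.92 in the main setting, 20.1 with dim probes kept and without limit under normexp. All 6 tested markers had the same SE under normexp, 0.455. The cause of the changes with normexp was not tested. No marker had another probe, so another probe of the same gene could not be tried. No paired analysis was possible because the control group has 1 array.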
